A study of Mus musculus with 10 samples.

Results

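The platelet-derived growth factor (PDGF) family was read in 10 RNA-seq libraries of sorted mouse hepatic stellate cells (HSCs). Its members were found by gene symbol and are 7 of the 25233 entries of the deposited table that carry a symbol: the 4 ligand genes *Pdgfa*, *Pdgfb*, *Pdgfc* and *Pdgfd*, and 3 receptor genes, *Pdgfra*, *Pdgfrb* and the receptor-like gene *Pdgfrl*. The comparison was between hypertrophied HSCs (hypHSCs) and quiescent HSCs (qHSCs), 5 libraries each. The source of the hypHSCs was C57BL/6J mice fed CDAHFD, a high-fat diet that lacks choline and is used to produce steatohepatitis and fibrosis. The mice of hypHSC 1 and 2 had eaten it for 13 weeks and were 19 weeks old, and those of hypHSC 3, 4 and 5 had eaten it for 12 weeks and were 18 weeks old. The qHSCs were from standard-diet C57BL/6J mice, 36 weeks old for qHSC 1, 2 and 5 and 34 weeks old for qHSC 3 and 4. Both kinds of cell were released by digesting the liver in place, floated on a density gradient and sorted by FACS, the hypHSCs on green and the qHSCs on blue fluorescence. Diet, age, digestion conditions and gate all changed together between the groups, so that their parts in any difference cannot be told apart. The mouse behind each library is not named, and the study took more samples than it had CDAHFD mice, so hypHSC preparations may share an animal. N therefore counts preparations, and p-values measure the spread between preparations.

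PDGFs are secreted dimers that act on receptor tyrosine kinases at the cell surface. The A and B chains are cleaved by proprotein convertases inside the producing cell, whereas the C and D chains are secreted with a CUB domain that extracellular proteases remove. The α receptor binds A, B and C chains, and the β receptor binds mainly B and D chains. In the injured liver, PDGF is known as a strong mitogen and chemoattractant for HSCs, which carry the receptors, while platelets, macrophages and endothelial cells are known sources of ligand.

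Values are normalized counts, that is, reads per gene divided by the size factor of the library. The libraries held 30534719 to 47317028 reads on genes with a symbol, and 3 reads, taken as the floor of detection, corresponded to 2.25 to 4.54 normalized counts. Mitochondrial genes took 2.21% to 12.8% of reads in hypHSCs and 1.25% to 1.61% in qHSCs. The number of genes with a symbol and a read was 14028 in hypHSC 5 and 14949 in hypHSC 4. It was 15821 to 16634 in hypHSC 1 to 3 and 15703 to 16211 in qHSCs. The labelled cell type was checked against marker genes before the family was read. All 11 stellate cell markers (among them *Lrat*, *Reln* and *Des*) were lower in hypHSCs, with a summed level of 8040 to 16619 normalized counts against 335223 to 478648 in qHSCs, although none was at the floor in every library of a group. All 11 macrophage markers (among them *Adgre1*, *Cd68* and *C1qa*) were higher in hypHSCs, with a sum of 1002110 to 1425790 against 5681 to 101228. Every hypHSC library had this pattern, so no comparison could be made without it. In such bulk samples, fewer cells of a type and less RNA per cell cannot be told apart.

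The promoters of *Pdgfc* and *Pdgfd* are shown because these related ligand genes differed between the groups in opposite directions, with *Pdgfc* higher and *Pdgfd* lower in hypHSCs. Each is the 250 bases before the start of the GENCODE canonical transcript in GRCm39 (mm39), written 5′ to 3′ on the strand of the gene, with matches to the searched motifs in capitals. They lie at chr3:80943418-80943667 on the plus strand for *Pdgfc* and chr9:6167990-6168239 on the plus strand for *Pdgfd*.
Pdgfc: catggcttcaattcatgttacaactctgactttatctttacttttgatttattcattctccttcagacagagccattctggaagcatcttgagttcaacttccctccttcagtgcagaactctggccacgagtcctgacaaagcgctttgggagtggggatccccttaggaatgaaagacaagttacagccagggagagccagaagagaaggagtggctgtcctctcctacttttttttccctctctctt
Pdgfd: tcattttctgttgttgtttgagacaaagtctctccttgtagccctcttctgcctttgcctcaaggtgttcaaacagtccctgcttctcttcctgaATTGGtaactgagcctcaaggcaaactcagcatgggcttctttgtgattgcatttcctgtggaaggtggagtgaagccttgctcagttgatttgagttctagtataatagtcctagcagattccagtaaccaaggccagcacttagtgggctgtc
The motifs searched on both strands were the TATA box (TATAAA), the CCAAT box (CCAAT), the GC box (GGGCGG), an AP-1 motif (TGANTCA), a PU.1-type ETS motif (GAGGAAGT) and an E-box (CACGTG). The *Pdgfd* promoter held a CCAAT box on the minus strand, 155 bases before the start site, and the *Pdgfc* promoter held none of the 6 motifs. Of 21751 promoters of the same length, 11.9% held the TATA box and 36.5% the CCAAT box. For the other motifs these shares were 36.3% for the GC box, 6.17% for the AP-1 motif, 2.08% for the ETS motif and 6.26% for the E-box. The GC content was 45.6% for *Pdgfc* and 46% for *Pdgfd*, against a median of 53.2% over all promoters. A match describes these letters and is not evidence of a bound factor.

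All 7 members were tested, and all were differentially expressed genes (DEGs), called where the log2 fold change reached 1 in either direction with a limma p, adjusted by Benjamini-Hochberg over 14630 genes, of 0.05 or less. The ligands *Pdgfa*, *Pdgfb* and *Pdgfc* were higher in hypHSCs, and the ligand *Pdgfd* and the receptors *Pdgfra*, *Pdgfrb* and *Pdgfrl* were lower. Of all genes tested, 39.5% were DEGs, 17.8% as higher (2602 genes) and 21.7% as lower (3177 genes), so that a call alone was common in this comparison. For 6 of the 7 members the values of the groups did not overlap, which was also the case for 39.5% of all genes. *Pdgfb* passed the filter on low values only through the hypHSCs, so its call was bound to go one way and adds no support to these counts. The median log2 fold change of all genes was -0.20. With libraries scaled to the same total the median was -0.54, and higher genes were 32.4% of the DEGs. With the scaling to 3 reference genes (*Hprt*, *Pgk1* and *Actb*) the median was -1.12 and this share 17.4%. No scaling turned the direction of a member.

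**Figure D1:**
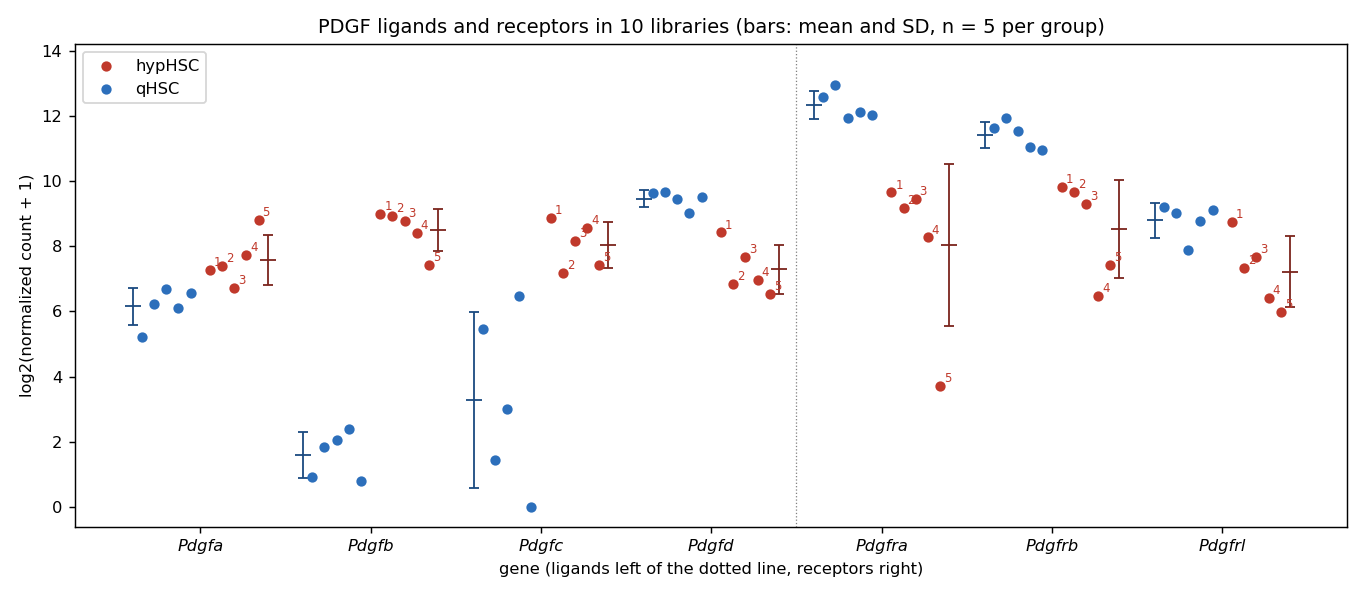
Level of each PDGF family gene in every library, as log2(normalized count + 1) on the vertical axis, with hypHSCs in red (digits give the library) and qHSCs in blue. Bars beside the points are the mean and SD of 5 libraries. The groups are apart for every gene but *Pdgfrl*, and hypHSC 5 has the lowest *Pdgfra* value, 12.1 normalized counts before the log.

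*Pdgfb*, which encodes the B chain, a ligand of both receptors, had 507, 483, 436, 341 and 171 normalized counts in hypHSC 1 to 5. In qHSC 1 to 5 it had 0.91, 2.56, 3.15, 4.28 and 0.75 normalized counts, which come from 1 to 5 reads per library, and 3 of these libraries were at or below the floor. Every hypHSC library was at least 39.9-fold above every qHSC library. The mean was 388 ± 137 (SD, n = 5) in hypHSCs and 2.33 ± 1.503 (n = 5) in qHSCs. The log2 fold change was 6.90 (standard error, SE, 0.50), given without a p because the gene entered the test only through the group where it was high. The ratio of the means, 166, rests on so few qHSC reads that its size is uncertain. *Pdgfb* lies at chr15:79880068-79899178, and no annotated gene shares its exon bases.

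*Pdgfc*, which encodes a ligand with a CUB domain, had 464, 145, 284, 376 and 171 normalized counts in hypHSC 1 to 5. In qHSC 1 to 5 it had 43.4, 1.70, 7.09, 87.3 and 0 normalized counts. The groups did not overlap, but the qHSCs were spread widely, from no read in qHSC 5 to a value in qHSC 4 only 1.66-fold below the lowest hypHSC library. The means were 288 ± 135 and 27.9 ± 37.6 (SD, n = 5 each), and the log2 fold change was 4.76 (SE 1.10, limma adjusted p = 0.00425). It became 5.56 without qHSC 4 and 3.94 without qHSC 5, and it was 3.40 with DESeq2 and 3.39 with edgeR. The gene lies at chr3:80943723-81121484, and 9.97% of its exon bases are shared with *Gm16000*.

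*Pdgfa*, which encodes the A chain, had 152, 167, 104, 211 and 446 normalized counts in hypHSC 1 to 5 and 36.2, 74.1, 102, 68.5 and 92.9 in qHSC 1 to 5. The groups barely separated, with the lowest hypHSC library 1.02-fold above the highest qHSC library, and hypHSC 5 was the highest of all. The means were 216 ± 134 and 74.7 ± 25.4 (SD, n = 5 each), with a log2 fold change of 1.42 (SE 0.44, limma adjusted p = 0.0201). The call was lost without qHSC 1 (1.18, limma adjusted p = 0.0504) and with the scaling to 3 reference genes (0.49, limma adjusted p = 0.443). At chr5:138961769-138980708, 37.7% of the exon bases of *Pdgfa* are shared with *6330403L08Rik*, and reads of the 2 genes cannot be told apart in libraries without strand.

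*Pdgfd*, which encodes the second ligand with a CUB domain and acts mainly on the β receptor, went the other way. It had 342, 114, 204, 125 and 92.3 normalized counts in hypHSC 1 to 5 and 796, 813, 699.9, 517 and 727 in qHSC 1 to 5. Every hypHSC library was below every qHSC library, by at least 1.51-fold. The means were 175 ± 102 and 711 ± 118 (SD, n = 5 each), and the log2 fold change was -2.16 (SE 0.35, limma adjusted p = 0.00041). The gene lies at chr9:6168486-6378855, with no exon bases shared.

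*Pdgfra*, the gene of the α receptor, had 802, 582, 695, 307 and 12.1 normalized counts in hypHSC 1 to 5. In qHSC 1 to 5 it had 6138, 7844, 3898, 4449.6 and 4194.5. The groups were apart by 4.86-fold, and hypHSC 5, with 8 reads, was far below the other hypHSC libraries. HypHSC 5 also had the fewest genes with a read of all libraries (14028), and the part of this in its *Pdgfra* value was not tested. The means were 480 ± 320 and 5305 ± 1665 (SD, n = 5 each), an 11.1-fold lower level in hypHSCs, with a log2 fold change of -4.27 (SE 0.96, limma adjusted p = 0.00358). Without hypHSC 5 the log2 fold change was -3.18. *Pdgfra* was number 617 from the bottom of the 14630 genes. It lies at chr5:75312912-75358865, where 5.67% of its exon bases are shared with other annotated genes.

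*Pdgfrb*, the gene of the β receptor, which HSCs and pericytes are known for, had 909.6, 815, 625, 88.1 and 171 normalized counts in hypHSC 1 to 5. In qHSC 1 to 5 it had 3142, 3863, 2947, 2090.4 and 1997. The groups were apart by 2.20-fold. HypHSC 4 and 5 were both well below the other hypHSC libraries, and the lowest value was in hypHSC 4, while that of *Pdgfra* was in hypHSC 5. The means were 522 ± 374 and 2808 ± 777 (SD, n = 5 each), a 5.38-fold lower level in hypHSCs, with a log2 fold change of -2.87 (SE 0.60, limma adjusted p = 0.0023). The gene lies at chr18:61178216-61218139 and shares no exon bases.

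*Pdgfrl* encodes a secreted protein that resembles the extracellular part of the receptors and has no kinase. It had 424, 159, 201, 84.98 and 62.0 normalized counts in hypHSC 1 to 5 and 590.1, 518, 235, 436 and 552 in qHSC 1 to 5. The groups overlapped, since hypHSC 1 was above qHSC 3. The means were 186 ± 144 and 466 ± 141 (SD, n = 5 each), with a log2 fold change of -1.57 (SE 0.49, limma adjusted p = 0.0211). The call was lost without hypHSC 4 (-1.37, limma adjusted p = 0.0515) and without qHSC 1 (-1.47, limma adjusted p = 0.0515). *Pdgfrl* lies at chr8:41379260-41443822, and 20.9% of its exon bases are shared with *Mtus1*, whose level was 726 ± 87.6 in hypHSCs and 5633 ± 795 in qHSCs. Reads in the shared exons could come from either gene, so the level of *Pdgfrl* and its difference are uncertain.

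By the exact two-sided permutation test over the 252 arrangements of 5 libraries against 5, p was 0.00794 for *Pdgfa*, *Pdgfc*, *Pdgfd*, *Pdgfra* and *Pdgfrb*, which is the smallest p this design allows, and 0.0159 for *Pdgfrl*. No p is given for *Pdgfb*, for the reason above.

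**Figure D2:**
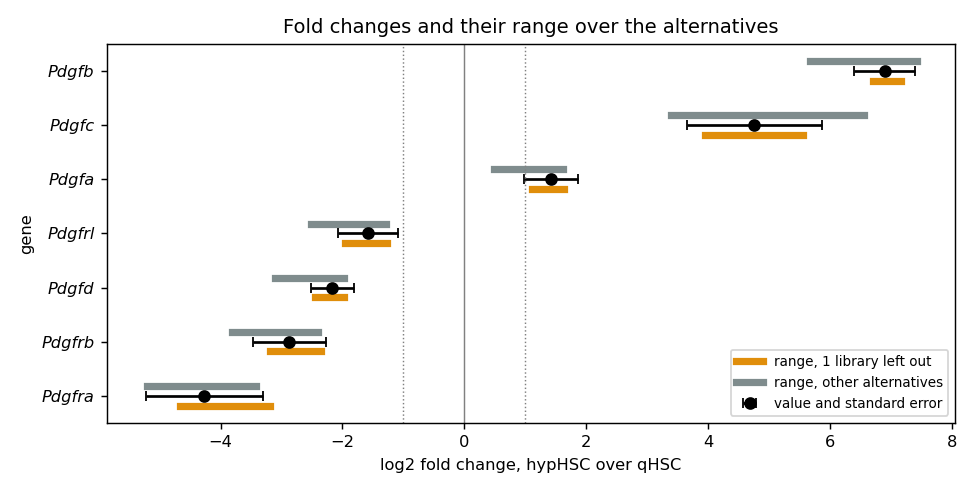
Log2 fold change of each PDGF family gene, hypHSCs over qHSCs, on the horizontal axis. Black points with bars are the value and its standard error, orange bars the range when 1 library is left out, and grey bars the range over the other alternatives; dotted lines mark the fold change threshold of 1 on either side. No range crosses 0, and that of *Pdgfa* reaches 0.49.

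The levels of the members were compared per length, as FPKM, fragments per kilobase of exon scaled to the reads of the library on genes with a symbol. In qHSCs the receptors led, with *Pdgfra* at 13.2 ± 4.12 FPKM (SD, n = 5) and *Pdgfrb* at 10.6 ± 3.11, followed by *Pdgfrl* at 3.58 ± 1.02 and *Pdgfd* at 2.35 ± 0.398. *Pdgfa* at 0.337 ± 0.118, *Pdgfc* at 0.129 ± 0.173 and *Pdgfb* at 0.0170 ± 0.0112 FPKM came last. Among neighbours in this order, only *Pdgfrb* and *Pdgfrl*, and *Pdgfd* and *Pdgfa*, had ranges that did not overlap. In hypHSCs the order began with a ligand, *Pdgfb* at 2.23 ± 0.903 FPKM, followed by *Pdgfrb* at 1.61 ± 1.17 and *Pdgfrl* at 1.17 ± 0.917. Then came *Pdgfc* at 1.04 ± 0.498, *Pdgfra* at 0.978 ± 0.678, *Pdgfa* at 0.731 ± 0.376 and *Pdgfd* at 0.466 ± 0.288 FPKM. All neighbours in the hypHSC order had overlapping ranges, although *Pdgfb* exceeded *Pdgfrb* in 5 of 5 libraries. The family thus spanned a narrower range of levels in hypHSCs than in qHSCs.

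The summed FPKM of the 4 ligands was 2.96 to 6.03 in hypHSCs (median 4.23) and 2.47 to 3.05 in qHSCs (median 3.02), and the groups overlapped, with hypHSC 5 lowest of its group. Their make-up differed. *Pdgfd* gave 69.9% to 88.2% of the ligand sum in qHSCs and 7.06% to 15.0% in hypHSCs, whereas *Pdgfb* gave 0.190% to 1.25% in qHSCs and 28.4% to 66.0% in hypHSCs. The share of *Pdgfc* was 0% to 16.2% in qHSCs and 12.5% to 31.0% in hypHSCs, so these ranges overlapped. The share of *Pdgfa* was 5.44% to 16.2% in qHSCs and 8.42% to 46.6% in hypHSCs, with the top value in hypHSC 5. The summed FPKM of *Pdgfra* and *Pdgfrb* was 16.6 to 33.7 in qHSCs (median 22.2) and 0.462 to 4.31 in hypHSCs (median 3.63). FPKM of *Pdgfra* and *Pdgfrb* per ligand FPKM was 6.33 to 11.1 in qHSCs and 0.156 to 0.858 in hypHSCs. Transcripts of *Pdgfra* and *Pdgfrb* outnumbered ligand transcripts in every qHSC library, and the reverse held in every hypHSC library. *Pdgfrl*, at 2.62, 0.991 and 1.42 FPKM in hypHSC 1 to 3, was not part of these ratios. With *Pdgfrl* counted, the reverse did not hold in those libraries. HypHSC 4 and 5 had the lowest of these ratios, 0.198 and 0.156, against 0.715 to 0.858 in hypHSC 1 to 3.

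**Figure D3:**
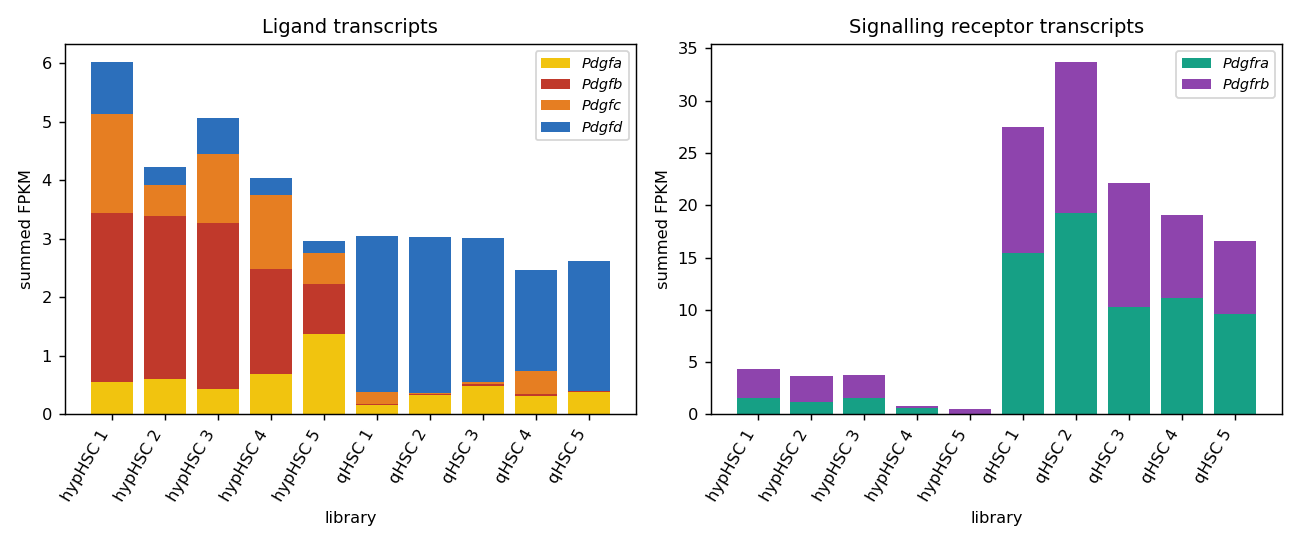
Summed FPKM per library of the 4 ligand genes (left) and of *Pdgfra* and *Pdgfrb* (right), with each gene as a coloured part of the bar. The ligand bars are mostly *Pdgfd* in the qHSC libraries and mostly other ligands in the hypHSC libraries, and the receptor bars reach 16.6 to 33.7 in qHSCs and 0.462 to 4.31 in hypHSCs. The vertical axes of the panels differ.

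A change of balance within the family was read from log2 ratios of normalized counts within each library, for 3 pairs, with p-values that are not adjusted. The *Pdgfa* to *Pdgfb* ratio was 4.55 ± 0.75 on the log2 scale in qHSCs and -0.93 ± 1.38 in hypHSCs (SD, n = 5 each). The difference, hypHSCs minus qHSCs, was -5.48, given as a description with no test, since the qHSC ratios rest on 1 to 5 reads of *Pdgfb*. In hypHSC 5, where *Pdgfa* was high and *Pdgfb* low, this ratio was 1.38, while it was negative in the other hypHSC libraries. The *Pdgfc* to *Pdgfd* ratio was -6.18 ± 2.85 in qHSCs and 0.74 ± 0.51 in hypHSCs, and 6.92 higher in hypHSCs without overlap (exact two-sided permutation test, p = 0.00794). In qHSC 2, 3 and 5 it rests on 2, 9 and 0 reads of *Pdgfc*, so the size of the difference is uncertain. This difference was 7.83 without qHSC 4 and 6.09 without qHSC 5. The *Pdgfra* to *Pdgfrb* ratio was 0.91 ± 0.29 in qHSCs and -0.49 ± 2.01 in hypHSCs, and the groups overlapped (exact permutation test, p = 0.111). In hypHSC 4 *Pdgfra* exceeded *Pdgfrb* by 1.79 on the log2 scale, and in hypHSC 5 it was below by 3.71 (log2 ratio -3.71), while the other 3 hypHSC libraries lay between -0.49 and 0.15. Without hypHSC 4 the difference was -1.97 (exact permutation test, p = 0.0159), and without hypHSC 5 it was -0.59.

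Libraries that differed in markers of other cell types were compared for the members. Kupffer cell markers, of the liver's resident macrophages, summed to 14397 to 26274 normalized counts in hypHSCs, and 2 of 5 were higher in hypHSCs. In qHSCs this sum was 16617 in qHSC 1 and 37358 in qHSC 4, but 1058 to 1620 in qHSC 2, 3 and 5. The macrophage sum was also higher in qHSC 1 (45333) and qHSC 4 (101228) than in qHSC 2, 3 and 5 (5681 to 9474). The same 2 libraries had the highest *Pdgfc* values among qHSCs, 43.4 and 87.3, whereas *Pdgfb* was at 0.91 and 4.28 in them, beside 0.75 to 3.15 in the other 3. With qHSC 1 and 4 left out, an alternative chosen after the data had been seen, 5 of the 7 members were DEGs. *Pdgfc* was then at a log2 fold change of 6.55, *Pdgfb* at 6.94, *Pdgfd* at -2.25, *Pdgfra* at -4.25 and *Pdgfrb* at -2.93. *Pdgfa* (1.09, limma adjusted p = 0.114) and *Pdgfrl* (-1.45, limma adjusted p = 0.102) lost their calls. Within the hypHSCs the macrophage sum, mostly *Lyz2*, was lowest in hypHSC 5 (1002110), and so was *Pdgfb*. Of its markers, *Adgre1*, *Csf1r*, *Fcgr1*, *C1qa*, *C1qb* and *Itgam* were lowest in hypHSC 4 and 5, as *Pdgfb* was. *Cd68*, *Cd14*, *Mertk*, *C1qc* and *Lyz2* were not. The part of macrophage RNA in the levels of *Pdgfb* and *Pdgfc* was not tested.

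For the receptors, the stellate cell marker sum was 9234 in hypHSC 4 and 8040 in hypHSC 5, close to the 8155 and 8213 of hypHSC 2 and 3, while *Pdgfra* and *Pdgfrb* were lower in hypHSC 4 and 5 than in hypHSC 2 and 3. Vascular smooth muscle markers, of which 3 of 4 tested were lower in hypHSCs, summed to 216 and 260 in hypHSC 4 and 5, 445 to 758 in hypHSC 1 to 3, and 4773 to 7811 in qHSCs, where *Cnn1* was at the floor in every library. In hypHSC 1 to 3 and in the qHSCs this sum was mostly *Smtn* and *Des*, and *Des* is a stellate cell marker too. *Pln* went the other way within the hypHSCs, with 36.4 to 59.0 normalized counts in hypHSC 1 to 3 and 105 and 139 in hypHSC 4 and 5. Portal fibroblast markers, of which 4 of 6 tested were higher, summed to 8351 to 19137 in hypHSCs and 814 to 6878 in qHSCs. This sum, mostly *Dpt* in every library, was higher in the group where the receptor genes were lower. Of the 4 higher markers, *Gli1* passed the filter on low values only through the hypHSCs, so its call was bound to go one way. Within the hypHSCs, *Cd34*, *Eln* and *Fbln2* were lowest in hypHSC 4 and 5, as *Pdgfra* and *Pdgfrb* were. *Dpt*, *Gli1*, *Pi16*, *Entpd2* and *Thy1* were not. *Entpd2* had a log2 fold change of -1.78 and *Eln* of -0.68, neither called. Mesothelial cell markers (1 of 2 tested higher) summed to 244 to 993 and 54.8 to 134, with *Msln* and *Upk3b* at the floor in every qHSC library. The higher one, *Krt19*, also passed the filter only through the hypHSCs. The parts of these cell types in the receptor levels were not tested.

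For the other sources of ligand, platelet and megakaryocyte markers (1 higher and 1 lower of 5 tested) summed to 4466 to 8166 in hypHSCs and 3697 to 6269 in qHSCs. Of these, *Gp9* and *Gp6* were at the floor in every library, and *Gp5* and *Treml1* in every qHSC library. Endothelial cell markers (2 higher and 4 lower of 8 tested) summed to 634 to 1187 in hypHSCs and 1608 to 3063 in qHSCs, so *Pdgfb* was higher in the group with the lower sum. Within the hypHSCs this sum was 1032, 1187, 863, 706 and 634 in libraries 1 to 5, so that hypHSC 4 and 5 were lowest both for it and for *Pdgfb*. Of the single markers, *Tie1* was lowest in hypHSC 4 and 5. *Pecam1*, *Cdh5*, *Tek*, *Stab2*, *Clec4g*, *Lyve1*, *Egfl7* and *Oit3* were not, and *Emcn* was at 0 in hypHSC 2 to 5. Of the qHSCs, qHSC 4 was highest for the sum and for *Pdgfb*, which rests on 1 to 5 reads per qHSC library. QHSC 5, with a sum of 2518, had the lowest *Pdgfb* value (0.75), and qHSC 3, with the lowest sum, had 3.15. The part of endothelial RNA in the level of *Pdgfb* was not tested. Cholangiocyte markers (3 of 3 tested higher) summed to 519 to 2874 and 4.72 to 56.1, and neutrophil markers (4 of 4 tested higher) to 1632 to 6165 and 0 to 120, with *Cftr* and *Retnlg* at the floor in every qHSC library. Of these markers, *Krt19*, *S100a9* and *Retnlg* passed the filter on low values only through the hypHSCs, so their calls were bound to go one way. Hepatocyte markers (0 of 7 called by limma, and 0 at an unadjusted p under 0.05 or by DESeq2 or edgeR) summed to 8652 to 84360 and 19705 to 64610. B cell markers (1 of 2 tested higher) summed to 242 to 381 and 5.11 to 128. The 1 tested marker of T and NK cells was not called, and these markers summed to 31.6 to 606 and 5.11 to 146, with *Klrb1c* at the floor in every qHSC library.

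**Figure D4:**
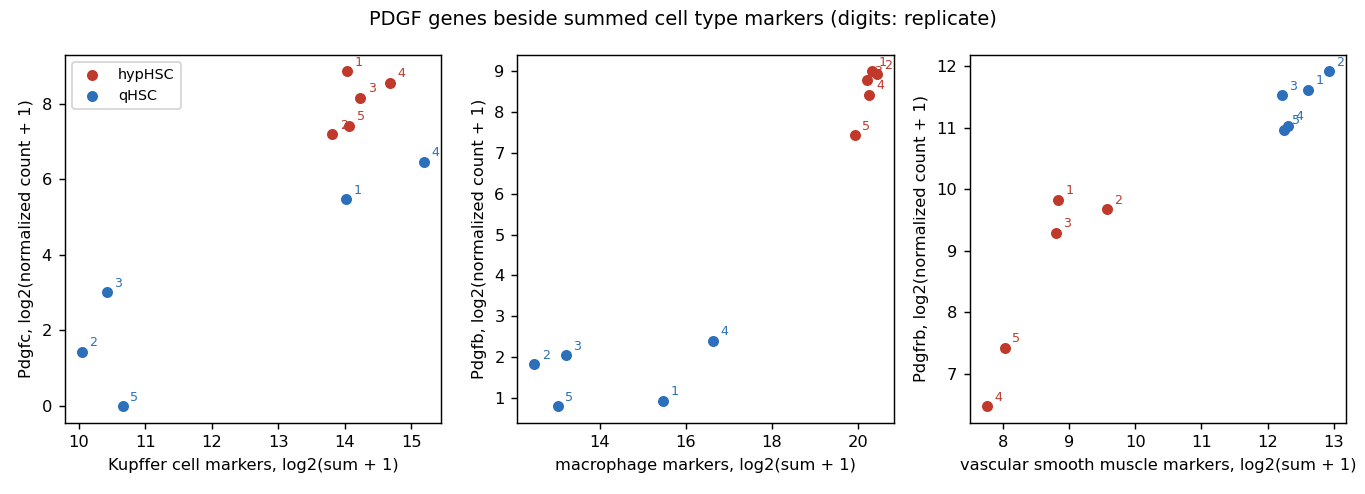
*Pdgfc* beside the summed Kupffer cell markers, *Pdgfb* beside the summed macrophage markers, and *Pdgfrb* beside the summed vascular smooth muscle markers, all as log2(normalized count + 1), with 1 point per library and its number. QHSC 1 and 4 lie near the hypHSCs for Kupffer cell markers and have *Pdgfc* values of 43.4 and 87.3 normalized counts, while hypHSC 4 and 5 have the lowest *Pdgfrb* values and smooth muscle sums.

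The genes whose pattern over the 10 libraries was most like that of each member were found by the root mean square (RMS) difference of centred log2 values. For *Pdgfra* these were *Gulp1* (RMS 0.291), *Cacna2d1* (0.297) and *Gm29804* (0.302), which all shared its low value in hypHSC 5. For *Pdgfrb* they were *Hspg2* (RMS 0.320), *Fkbp10* (0.324) and *Col4a1* (0.340), of which *Hspg2*, the gene of perlecan, is also among the binding partners below. *Pdgfrl* had *Rxra* (RMS 0.347), *Zc4h2* (0.376) and *Flot2* (0.388). *Pdgfd* had *Tmem9* (RMS 0.251), *Sh3pxd2a* (0.281) and *Adamts5* (0.293), and *Pdgfa* had *Atp5k* (0.201), *Dcun1d5* (0.268) and *Adss* (0.270). For the ligands with low values in qHSCs the likeness was looser. *Pdgfb* had *Trim16* (RMS 0.561), *Slc22a4* (0.597) and *Dnmt3l* (0.614), and *Pdgfc* had *Cacna1f* (0.605), *Pilra* (0.673) and *Slc8a1* (0.708).

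The 72 genes that make, bind or carry the PDGF signal, apart from the 7 members, were described by list. Over all genes tested, 39.5% were DEGs, 17.8% as higher and 21.7% as lower. In the 69 of the 72 that could be tested there were 35 DEGs, of which 15 were higher and 20 lower. Their median log2 fold change was -0.40 beside -0.20 over all genes. With the libraries scaled to the same total the pathway DEGs were 10 higher and 27 lower, and with the scaling to 3 reference genes 7 higher and 41 lower. Under the latter, the calls of *Furin*, *Plat*, *Rasa1*, *Nras*, *Map2k2*, *Cbl* and *Fosl1*, all higher, were lost.

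Of 7 tested genes of ligand processing, 3 were higher and 3 lower (median log2 fold change -0.77). *Plau*, the gene of urokinase, a protease that can activate the D chain, had 358, 560.1, 416, 464 and 138 normalized counts in hypHSC 1 to 5 and 5.43, 0, 4.72, 18.8 and 0 in qHSC 1 to 5. The groups were far apart (387 ± 158 against 5.80 ± 7.72, SD, n = 5 each), with a log2 fold change of 6.56 (SE 0.84), or 7.16 without qHSC 4. *Plat*, whose product, tissue plasminogen activator, can activate the C chain, rose by 1.92 on the log2 scale (SE 0.71, limma adjusted p = 0.0422), but the groups overlapped. Its call was lost when hypHSC 1, 2, 3 or 4 or qHSC 1, 2, 4 or 5 was left out (1.57 to 2.09; without qHSC 3 it was 2.52) and with DESeq2 (1.56) or edgeR (1.57). The convertase gene *Furin* rose by 1.03 (705 ± 238 against 332 ± 37.3), a call that was lost with the same total (0.68) and without hypHSC 2 (0.99), hypHSC 5 (0.86) or qHSC 1 (0.98). The convertase genes *Pcsk5* (log2 fold change -5.25, SE 0.84) and *Pcsk6* (-3.43, SE 1.02) were lower. *Pcsk5* was at -5.91 without hypHSC 1, and *Pcsk6* at -4.14 without hypHSC 2 and -2.52 without hypHSC 3, and its call was lost with edgeR (-2.32). The convertase gene *Pcsk7* was at -0.77 (limma adjusted p = 0.347). *St14*, the gene of matriptase, was too low to be tested, with 48.8 ± 39.3 in hypHSCs and 0.172 ± 0.385 in qHSCs, where every library was at the floor.

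Of 4 tested binding partners, 2 were lower (median -1.20). *Sparc*, whose product binds the B chain, was at 12029 ± 9782 in hypHSCs and 47448 ± 4000 in qHSCs (-2.32, SE 0.44), and *Hspg2* had 115 ± 89.4 and 490.3 ± 127 (-2.50, SE 0.58). The co-receptor gene *Nrp1* was at 10434 ± 2238 against 5258 ± 1205 without overlap, but its log2 fold change of 0.99 was under the threshold of 1, which it passed with the same upper quartile (1.10), TMM factors (1.05), DESeq2 (1.06) and edgeR (1.06). The low-density lipoprotein receptor-related gene *Lrp1* was at -0.07 (limma adjusted p = 0.905). *Cspg4* (NG2, a pericyte proteoglycan) and *A2m* were too low to be tested.

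Of 24 genes of receptor-proximal signalling, 4 were higher and 9 lower (median -0.87). The adaptor gene *Grb2* was at 5236 to 7689 in hypHSCs and 847 to 1187 in qHSCs, a log2 fold change of 2.78 (SE 0.16). The kinase genes *Pik3cb* (4.18, SE 0.71) and *Fyn* (1.98, SE 0.35) and the RAS GTPase-activating gene *Rasa1* (1.32, SE 0.23) were higher too. *Pik3cb* passed the filter on low values only through the hypHSCs, so its call was bound to go one way and adds no support to the counts. The adaptor genes *Gab1* (75.5 to 244 against 1083 to 1726, log2 fold change -3.11, SE 0.31) and *Grb10* (108 to 369 against 1887 to 2451, -3.26, SE 0.30) were lower. So was *Plcg1*, the gene of phospholipase C gamma (-3.07, SE 1.01). The call of *Plcg1* was lost without hypHSC 2 (-2.42), qHSC 1 (-2.98), qHSC 2 (-3.05) or qHSC 3 (-3.01) and with DESeq2 (-2.02) or edgeR, and it was at -3.67 without hypHSC 1 and -2.42 without hypHSC 5. The call of *Rasa1* was lost with the same total (0.97).

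Of 13 genes of the RAS, MAP kinase and AKT cascade, 3 were higher and 1 lower (median 0.02). The GTPase gene *Nras* (1.78, SE 0.19) and the kinase gene *Map2k2* (1.23, SE 0.22) were among the higher ones, and the kinase gene *Araf* (-1.09, SE 0.20) was lower. With the same total *Map2k2* (0.87) fell under the threshold, and *Araf* did so without hypHSC 5 (-0.96) and with the same upper quartile (-0.98), DESeq2 or edgeR.

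Of 12 genes of receptor attenuation, 4 were higher and 3 lower (median -0.00). The lower ones were the Sprouty genes, feedback inhibitors of receptor tyrosine kinase signalling. *Spry1* had 979.6, 451, 298, 132 and 186 normalized counts in hypHSC 1 to 5 and 12765, 14103, 9269, 12909 and 12582 in qHSC 1 to 5, a log2 fold change of -5.26 (SE 0.45). *Spry4* was at -3.97 (SE 0.45) and *Spry2* at -2.57 (SE 0.54). The higher ones were *Cbl*, which encodes a ubiquitin ligase of activated receptors (1.76, SE 0.19), the phosphatase genes *Ptpn1* (2.50, SE 0.25) and *Ptprj* (2.12, SE 0.35), and the adaptor gene *Sla* (3.60, SE 0.76). The Sprouty genes and these 4 genes thus differed in opposite directions within 1 list.

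Of 9 early response genes that PDGF is known to induce, 1 was higher and 2 lower (median -0.92). *Ier2* (-1.97, SE 0.28) and *Fosb* (-1.90, SE 0.39) were lower and *Fosl1* (2.32, SE 0.62) was higher. *Fos* (-0.92), *Junb* (-0.89), *Egr1* (-0.94), *Jun* (-0.58), *Srf* (-1.56) and *Myc* (0.22) were not called, and with the same total *Myc* was at -0.14. With the same total, *Fos* (-1.28), *Junb* (-1.25), *Egr1* (-1.29) and *Srf* (-1.90) were called lower as well.

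**Figure D5:**
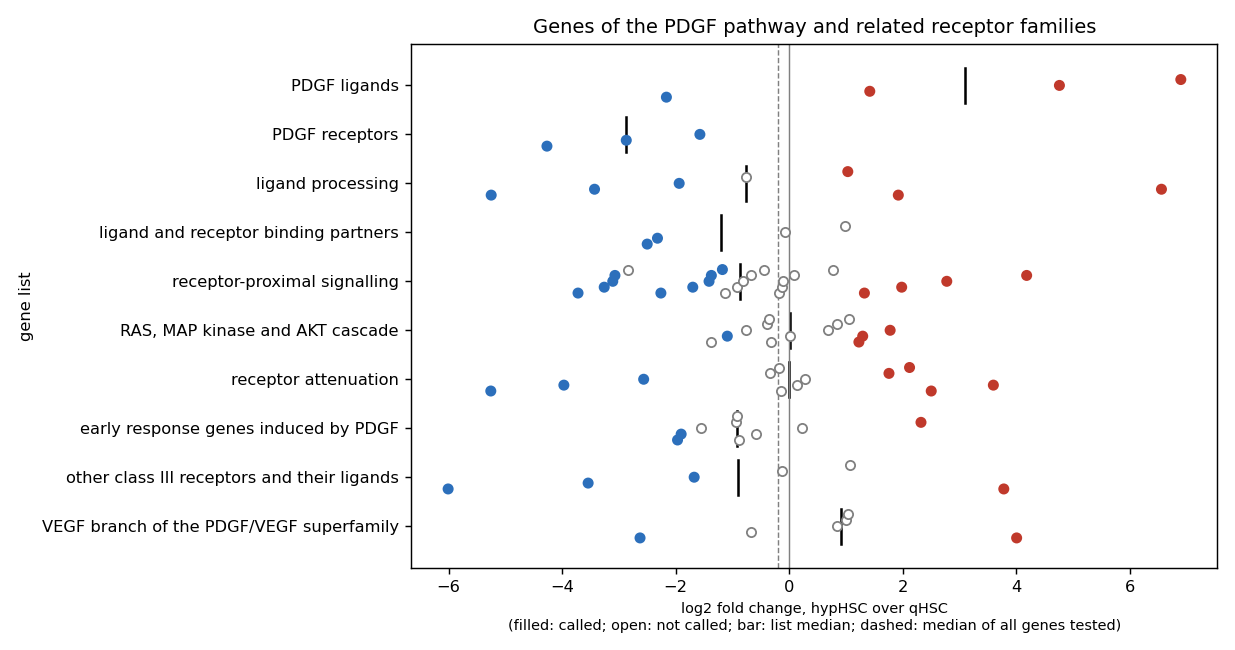
Log2 fold change, hypHSCs over qHSCs, of the genes in each list (1 point per gene, red or blue if called higher or lower, open if not called), with the list's median as a bar and the median of all genes, -0.20, as a dashed line. Of the members, 3 ligands lie above 0 and *Pdgfd* lies below it with the receptors, while the signalling lists hold genes on both sides of 0.

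The relatives of the PDGF family gave a comparison with other ligands and receptors of the same kind. Of 6 tested genes of the other class III receptors and their ligands, 1 receptor gene was higher and 3 ligand genes were lower (median -0.91). *Csf1r*, the receptor of macrophage colony-stimulating factor and itself a macrophage marker, had 14052, 24497, 24120.2, 5275 and 1833 normalized counts in hypHSC 1 to 5. It had 2883, 163, 259, 3833 and 348 in qHSC 1 to 5, so the groups overlapped (3.78, SE 1.01). Its ligand genes *Il34* (71.1 ± 50.3 against 2230 ± 389, -6.01, SE 1.12) and *Csf1* (47.0 ± 29.5 against 398 ± 94.2, -3.54, SE 0.72) were lower. Without hypHSC 5 the log2 fold change was -4.74 for *Il34* and -2.78 for *Csf1*, while that of *Csf1r* was 4.38 without hypHSC 5 and 4.40 without qHSC 4. The call of *Csf1r* was lost with the hypHSCs at 12 weeks only (3.14). *Flt3l* was lower (-1.68, SE 0.33), *Kitl* was at -0.14 and *Kit* at 1.06, neither called, and *Flt3* was too low to be tested.

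Of 6 tested genes of the VEGF branch of the superfamily, 1 was higher and 1 lower (median 0.92). *Vegfa*, the main endothelial growth factor gene, was at 52.4 ± 36.3 in hypHSCs and 2.36 ± 2.05 in qHSCs (4.01, SE 0.69), where 3 of 5 libraries were at the floor. *Vegfa* passed the filter on low values only through the hypHSCs, so its call was bound to go one way and adds no support to the count. *Vegfc*, a lymphatic growth factor gene, had 124 ± 87.3 and 654 ± 175 (-2.63, SE 0.45). The receptor genes *Flt1* (0.84) and *Kdr* (1.03) and the ligand genes *Vegfb* (-0.67) and *Vegfd* (1.0) were not called, although DESeq2 called *Kdr* (1.30) and *Vegfd* (1.17) higher, and *Pgf* and *Flt4* were too low to be tested.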

How the data were processed

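Gene expression was measured by RNA-seq in 5 hypHSC and 5 qHSC preparations. The authors mapped paired reads of non-stranded, poly(A)-primed libraries to mm39 with STAR, counted them per gene with featureCounts (Subread 1.5.0) and deposited these counts divided by DESeq2 size factors, a signal called normalized count here. Whole reads were recovered from the deposited values (100% within 0.02 reads) and used for depth, FPKM and the count tests.

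Genes that carry a symbol and reached 10 normalized counts in 5 or more libraries entered the test on log2(normalized count + 1) with limma 3.58.1 (trend) in R 4.3.3, adjusted over all genes. Fold changes are on this scale, which can make those of low genes smaller or larger than a count model does. *Pdgfb* was at 6.90 on it and 7.42 with DESeq2, and *Pdgfc* at 4.76 and 3.40. The steps were tested on simulated data. Single ratios were compared by exact two-sided permutation. Exon lengths, shared exon bases and promoters came from GENCODE and the GRCm39 genome, and 91.9% of the symbols had a length.

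The named genes were the 7 members, whole lists of up to 9 genes, and from longer lists up to 4 called, non-overlapping genes per direction with the largest fold changes, with 3 nearest genes per member. Markers of 13 cell types were summed per library. The members and lists were chosen with earlier results of these data known.

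Alternatives were pseudocounts of 0.5 and 5, no filter, other scalings (same total, upper quartile, TMM, or *Hprt*, *Pgk1* and *Actb* as 3 reference genes), DESeq2 1.42.0 and edgeR 4.0.16 on the recovered reads, the replicate number as a block, hypHSCs at 12 weeks only, entries without a symbol included, and each library left out. Leaving out qHSC 1 and 4 together was added after the data had been seen. Promoters are printed for *Pdgfc* and *Pdgfd* only, and some genes that the naming rule gives are not reported here. Protein sequences were not used here.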

Additional observations from a re-analysis of the deposited data

Results flagged for a closer look

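In groups of 5 libraries, a library was singled out where its gap to the nearest other library, divided by the range of the group, was above 0.71 (Dixon's 95% critical value). Of 162 groups of 5 examined, 12 passed, and chance gives about 1 in 20.

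Among the members, hypHSC 5 was lowest for *Pdgfra* (ratio 0.768). The same library was lowest for the 3 genes nearest to *Pdgfra*, *Gulp1* (0.889), *Cacna2d1* (0.896) and *Gm29804* (0.750), which were chosen for their likeness to it, and for *Csf1* (0.805) and *Il34* (0.770). The *Pdgfra* to *Pdgfrb* ratio of qHSC 3 was lowest among qHSCs (0.820). HypHSC 4 was highest for *Kitl* (0.771). Among qHSCs, qHSC 4 was lowest for *Grb10* (0.853), qHSC 3 lowest for *Spry1* (0.728) and highest for *Kdr* (0.817), and qHSC 2 highest for *Il34* (0.723).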

How the results depend on the processing

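All 7 members kept their direction under all 23 alternatives, and *Pdgfc*, *Pdgfd*, *Pdgfra* and *Pdgfrb* kept their calls under each. *Pdgfb* was at 5.67 to 7.42. The number of members called was 5 to 7 with 1 library left out, 5 without qHSC 1 and 4, 6 with 3 reference genes, and 7 otherwise. The number of pathway genes called was 32 to 36 with 1 library left out and 30 to 48 otherwise (main 35). The *Pdgfra* to *Pdgfrb* difference was -1.97 to -0.59 with 1 library left out, and the *Pdgfc* to *Pdgfd* ratio kept its call. *Lrp1* changed direction with the same upper quartile (0.037), DESeq2 (0.15) and edgeR (0.16) and with 1 library left out (-0.28 to 0.30). *Myc* did so with the same total (-0.14), 3 reference genes (-0.72) and 1 library left out (-0.070 to 0.36). So did *Kit* with the hypHSCs at 12 weeks only (-0.85), *Kitl* without qHSC 1 and 4 (0.081) and *Flt1* with 3 reference genes (-0.094). The cause of these changes was not tested. Of 1794 values for 78 single genes, 60 lost a call, 39 gained one and 12 changed direction. With the replicate block all 7 members and 36 pathway genes were called, with 5786 genes in all beside 5779, and it changed no call of a member. The same replicate number did not pair the libraries: the deviations of same-numbered libraries correlated at 0.00815 to 0.129 over genes, and 1 of 5 hypHSCs and 1 of 5 qHSCs correlated best with its own number. Depth limited *Pdgfb* and *Pdgfc* in qHSCs, where 3 and 2 libraries were at the floor of 3 reads, and this limit covers counting error only.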
